A study of Mus musculus with 18 samples.

Results

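Heme biosynthesis was followed through 8 of the genes that encode its enzymes, namely Alas1, Alas2, Alad, Uros, Urod, Cpox, Ppox and Fech. They were chosen by name, as rows of the count table that carry these symbols, and all 8 were found among its 54232 genes. The readout was 4sU-seq of nascent RNA, in which newly made RNA takes up the uridine analogue 4-thiouridine and is then purified and sequenced. Cells came from fetal livers of C57BL/6 mouse embryos (e12.5-e13.5) and were sorted on CD71, the transferrin receptor, and Ter119, a surface marker of maturing erythroid cells.

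The 5 sorted erythroid groups, with 3 libraries each, lacked lineage markers. S0-Low (CD71 low in the titles, CD71- in the marker labels) lacked Ter119, and S0-Medium had medium CD71 without Ter119. S1 had high CD71 without Ter119, S2 added medium Ter119, and S3 was high for both. The study describes S0-Low as stem, progenitor and burst-forming cells, S0-Medium and S1 as early and late colony-forming cells, and S2 and S3 as terminally maturing cells. A further 3 libraries came from lineage-positive (Lin+) cells. All cells were rested for 6 h after sorting and labelled with 500 µM 4-thiouridine for 45 min, so all groups share that culture step.

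Heme is an iron-holding ring made in a fixed chain of reactions that begins and ends in the mitochondrion and passes through the cytosol between. 5-aminolevulinate synthase joins glycine to succinyl-CoA in the first step, and it exists as a form used in most tissues (Alas1) and an erythroid form encoded on the X chromosome (Alas2). Alad joins the product into a pyrrole, Uros closes the ring, and Urod, Cpox and Ppox trim and oxidize it. Fech inserts iron as the last step. Red cells need heme for haemoglobin in large amounts, and erythroid cells are the main site of its production in the body.

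Total counts ranged from 9452476 to 40567976 per library, and 3 counts, taken as the floor, correspond to 0.0622 to 0.249 CPM (counts scaled to the library total with TMM factors over the 18 libraries). The summed level of 5 erythroid markers was 330 to 626 CPM in S0-Low and 20719.7 to 35932 in S3, and that of 4 progenitor markers was 793 to 1050.2 in S0-Low and at most 10.6 in S3. In Lin+, which the labels also call erythroblasts, the erythroid sum was 191 to 244, below every S0-Low library, and the sum of 7 neutrophil and monocyte markers was 2903 to 5427. Itgam, which encodes the CD11b of the lineage panel, was at 0 in all 18 libraries, as was the hepatocyte marker Ttr. In bulk samples of this kind, fewer cells of a type and less RNA per cell cannot be told apart.

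The 8 genes together took 0.0671% ± 0.015 of all counts in S0-Low (SD, n = 3) and 0.855% ± 0.0827 in S3. Between these, S0-Medium had a share of 0.132% ± 0.0373, S1 one of 0.255% ± 0.0918 and S2 one of 0.38% ± 0.123. Lin+ had 0.0579% ± 0.0109. The S0-Low and S3 libraries did not overlap, and those of S0-Low and Lin+ did. The make-up of the sum differed between S0-Low and Lin+. Alas1 gave 7542 of 12851, 15388 of 22432 and 19961 of 26688 counts of the 8 genes in Lin+. In S0-Low it gave 1878 of 17591, 2234 of 24819 and 532 of 7322.

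Between S0-Low and S3, 7 of the 8 enzyme genes rose and Alas1 fell, and for each of the 8 the libraries of these populations did not overlap. Of all 16555 genes tested, 16.6% had S3 libraries wholly above those of S0-Low and 25.9% wholly below. By edgeR's quasi-likelihood test at an adjusted p under 0.05, 13.4% of the 16555 genes tested were higher in S3 and 22.4% were lower. The median log2 fold change was 4.13 over the 8 enzyme genes and -0.54 over all genes tested. Scaling by library totals instead of TMM moved the median of all genes to -1.36 and the shares to 6.98% higher and 37.6% lower, and the 8 directions and calls were as before.

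**Figure D1:**
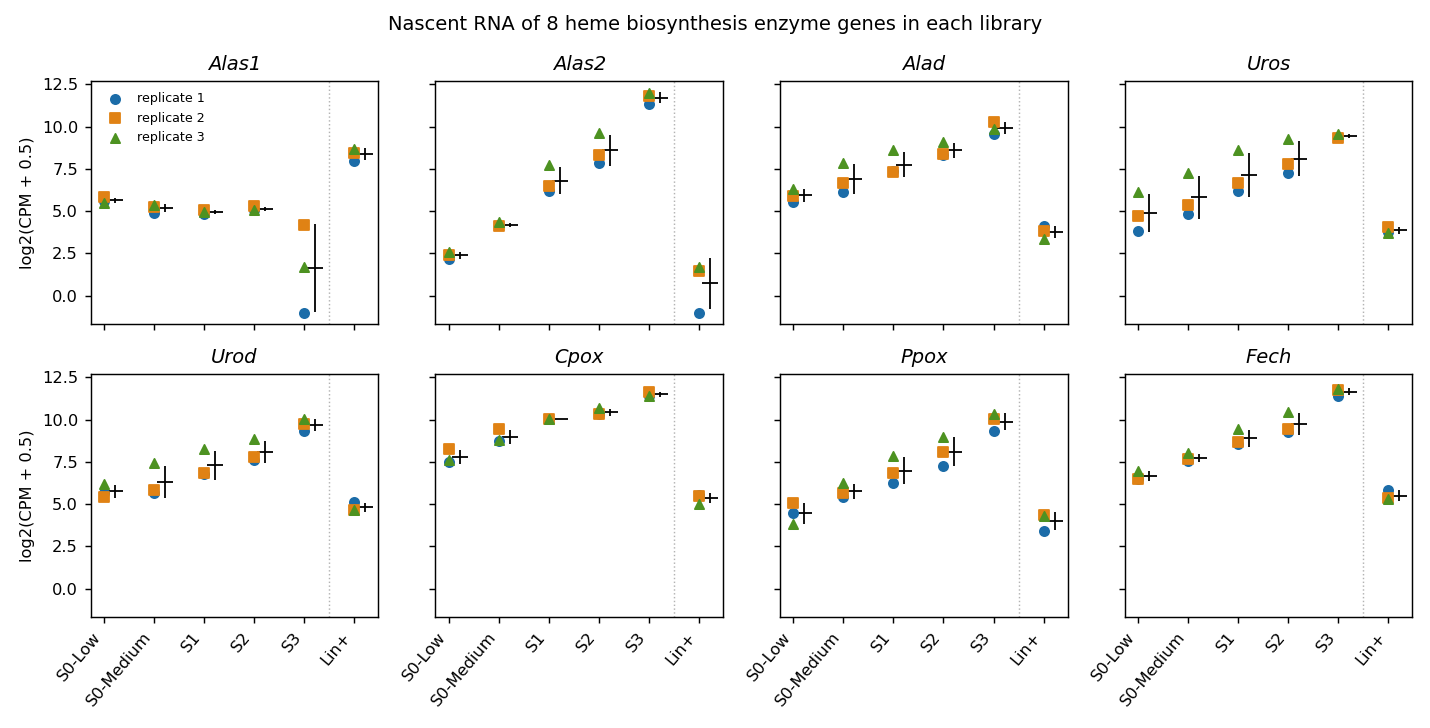
Nascent RNA of each enzyme gene on a log2(CPM + 0.5) axis, with 1 point per library, coloured and shaped by replicate, and the mean and SD of the 3 libraries of each group as a black bar to the right. In 7 panels the points climb from S0-Low to S3 and drop in Lin+; in the Alas1 panel the erythroid points are highest in S0-Low, lower from S0-Medium to S2 and lowest in S3, and those of Lin+ are the highest of all.

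Alas2, the erythroid form of the first enzyme, spans 150547417 to 150570622 on chromosome X (GRCm38). Its level in the 3 S0-Low libraries was 4.00, 4.81 and 5.48 CPM, and in S0-Medium it was 17.3, 17.0 and 19.8 CPM. It was 72.9, 88.5 and 209.6 CPM in S1, and 233, 317 and 778 CPM in S2. S3 held 2597, 3575 and 4057 CPM, more than in any library of the other groups. The populations were in order without overlap at each step. From S0-Low to S3 the log2 fold change was 9.49 ± 0.64 (SE; edgeR adjusted p = 4.81e-07), the largest of the 8. Gene models place 12.9% of the exonic bases of Alas2 opposite Apex2, a DNA repair gene on the other strand. The strand setting of the counting is not given in the sources used here, so reads of that stretch are uncertain.

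Alas1, the form used in most tissues, spans 106233455 to 106247954 on chromosome 9 and had the opposite course. It stood at 48.5, 55.7 and 44.1 CPM in S0-Low and at 29.7, 36.9 and 41.4 CPM in S0-Medium. S1 had 27.9, 33.4 and 30.8 CPM and S2 had 32.8, 38.7 and 33.6 CPM. In S3 the libraries held 0, 18.02 and 2.70 CPM, from 0, 400 and 47 counts. All 3 S3 libraries lay below the 12 earlier ones, and they differed widely among themselves. From S0-Low to S3 Alas1 fell by 2.83 ± 1.01 on the log2 scale (edgeR adjusted p = 0.0394). DESeq2 gave no adjusted p for it. The call was lost without S0-Low replicate 1, 2 or 3 (adjusted p of 0.0632, 0.0721 and 0.052), without S3 replicate 3 (0.11), without the replicate 3 libraries of every population (0.153) and with only the 6 libraries compared (-3.08 on the log2 scale, adjusted p = 0.153). Without S3 replicate 2 Alas1 fell by 5.16 on the log2 scale.

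S3 replicate 2, where Alas1 was highest in S3, also had the highest sums of other cells' markers in that population. Its 4 progenitor markers summed to 10.6 CPM against 0.0757 and 0.0575 in replicates 1 and 3, its 6 macrophage markers to 4.37 against 0.151 and 0.0575, and its 4 megakaryocyte markers to 86.6 against 18.3 and 40.0. The macrophage markers Csf1r, Cd163 and Vcam1 were at 0 in S3. Summed markers of other cells were, like Alas1, lower in every S3 library than in every S0-Low library for 4 further lists. The 7 neutrophil and monocyte markers (6 with a count in S0-Low, 3 in S3) summed to 326 to 747 CPM in S0-Low and at most 2.30 in S3, the 4 lymphoid markers (3 and 1 with a count) to 91.1 to 169 and at most 0.315, and the macrophage markers (6 and 3) to 33.7 to 53.3 and at most 4.37. The 4 hepatocyte markers (3 with a count in S0-Low) summed to 5.78 to 9.04 CPM in S0-Low, and all 4 were at 0 in S3. The part of such cells in the Alas1 level was not tested.

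The balance of the Alas forms was also read within each library, as the log2 ratio of Alas2 to Alas1 counts with 0.5 added to each, which does not depend on scaling and takes no account of gene length. It was -3.59, -3.53 and -3.0 in S0-Low and -0.77, -1.12 and -1.07 in S0-Medium, so Alas1 had more counts in all 6 libraries. Per kb of exon the S0-Medium levels overlapped, at 6.88, 8.57 and 9.62 CPM per kb for Alas1 and 7.22, 7.06 and 8.24 for Alas2, which was ahead in replicate 1. In S1 it was 1.39, 1.41 and 2.76, and in S2 2.83, 3.03 and 4.53, with Alas2 ahead in each. S3 gave 16.07, 7.63 and 10.54. Alas1 had 0 counts in S3 replicate 1, so its ratio depends on the count added, and against a floor of 3 counts Alas2 was at least 11440-fold higher there. The difference in log2 ratio between S3 and S0-Low was 14.79 (two-sided exact permutation test, p = 0.1, the smallest p that 3 libraries against 3 allow).

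**Figure D2:**
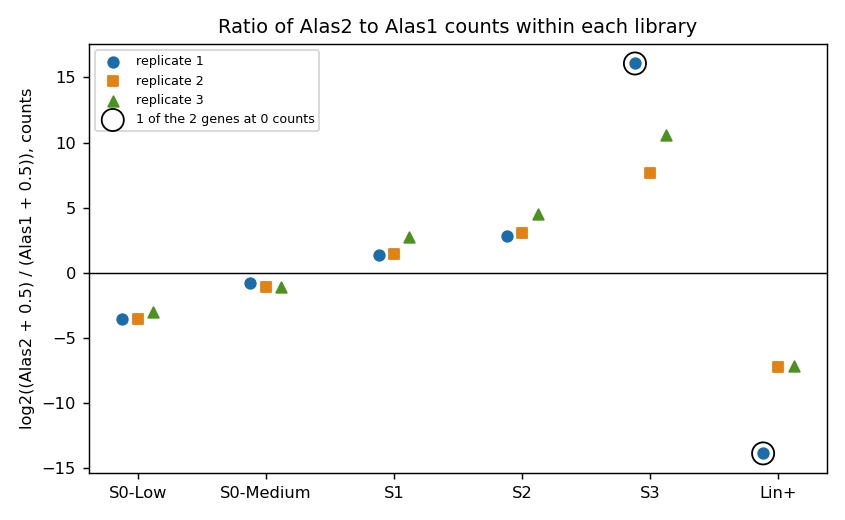
Log2 ratio of Alas2 to Alas1 counts (0.5 added to each) in every library, coloured by replicate, with a line at 0 where both have equal counts. Libraries in which 1 of the genes had 0 counts are circled. The ratio is below 0 in S0-Low and S0-Medium, above 0 from S1 to S3, and below -7 in Lin+.

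Alad makes the pyrrole porphobilinogen and lies at 62505984 to 62520063 on chromosome 4. It measured 46.7, 59.3 and 80.6 CPM in S0-Low, 69.7, 99.8 and 232 CPM in S0-Medium and 163, 162 and 385 CPM in S1. It reached 317, 335 and 548 CPM in S2 and 758, 1238 and 942 CPM in S3. Only the S2 to S3 step separated its libraries fully from those of the population before. The log2 fold change from S0-Low to S3 was 3.98 ± 0.51 (edgeR adjusted p = 4.78e-05).

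Uros, which closes the ring and lies at 133686142 to 133710467 on chromosome 7, had widely spread replicates. Its 3 libraries gave 14.0, 25.4 and 68.4 CPM in S0-Low, 28.4, 40.58 and 151 CPM in S0-Medium and 73.2, 99.4 and 398 CPM in S1. They gave 155, 219.7 and 621 CPM in S2. In each of these populations replicate 3 was the highest, at 3.32 to 4.61 times the mean of replicates 1 and 2. In S3 the values were 672, 649.7 and 763 CPM, where replicate 3 was 1.15 times the mean of the others. The log2 fold change from S0-Low to S3 was 4.28 ± 0.85 (edgeR adjusted p = 0.00143), with the largest SE of the 7 genes that rose.

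Urod, which trims the side chains of the ring, lies at 116989965 to 116994436 on chromosome 4. Levels were 50.4, 42.4 and 71.7 CPM in S0-Low and 50.8, 57.4 and 171 CPM in S0-Medium, so the first step was small outside replicate 3. S1 had 110.3, 113 and 311 CPM, S2 had 194, 222 and 460.2 CPM, and S3 had 641, 852 and 1039.6 CPM. Its log2 fold change from S0-Low to S3 was 3.94 ± 0.58 (edgeR adjusted p = 0.000133).

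Cpox, the next enzyme, oxidizes side chains and lies at 58670208 to 58680391 on chromosome 16. It had 181, 308 and 197 CPM in S0-Low and 420.4, 700.2 and 439 CPM in S0-Medium. S1 was close to even, at 1061, 1041 and 1060.5 CPM, and S2 followed at 1289, 1265 and 1635 CPM. S3 had 2712, 3200.25 and 2727 CPM. The libraries were separate at every step. From S0-Low to S3 the log2 fold change was 3.65 ± 0.32 (edgeR adjusted p = 2.8e-06), the smallest of the genes that rose and the one with the smallest SE. Of its change in mean log2(CPM + 0.5), 60.8% had come by S1, against 39.2% to 50.0% for the other 6 genes that rose. Its log2 fold change from S1 to S3 less that from S0-Low to S1 was -0.74 ± 0.50 and did not pass (edgeR adjusted p = 0.508).

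Ppox, which oxidizes the ring to protoporphyrin, lies at 171276991 to 171281193 on chromosome 1. It had 21.6, 33.5 and 13.4 CPM in S0-Low, 42.0, 49.3 and 75.1 CPM in S0-Medium and 76.0, 113 and 230.2 CPM in S1. It had 155, 268 and 503 CPM in S2 and 631, 1042 and 1276 CPM in S3. Replicate 3 was the lowest library in S0-Low and the highest in each later population. From S0-Low to S3 the log2 fold change was 5.42 ± 0.59 (edgeR adjusted p = 1.35e-05). B4galt3, on the other strand, covers 17.5% of its exonic bases in the gene models, which leaves reads of that stretch uncertain.

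Fech, the iron-inserting enzyme, lies at 64456542 to 64489098 on chromosome 18. S0-Low had 88.6, 89.2 and 126 CPM, S0-Medium 189, 200.5 and 257 CPM, and S1 374, 402 and 709 CPM. S2 had 605, 711 and 1405 CPM and S3 had 2705, 3409.6 and 3536 CPM. Its libraries overlapped only between S1 and S2. The log2 fold change from S0-Low to S3 was 4.99 ± 0.42 (edgeR adjusted p = 1.74e-06).

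**Figure D3:**
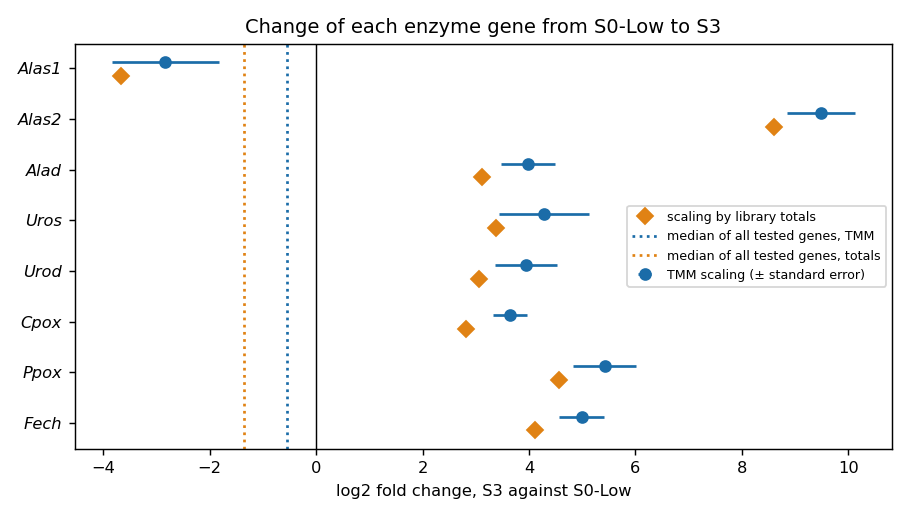
Log2 fold change of each enzyme gene from S0-Low to S3 with TMM scaling (circles, bars ± SE) and with library totals (diamonds). Dotted lines mark the medians of all tested genes, at -0.54 and -1.36. Alas2 is farthest to the right at 9.49, 6 genes lie between 3.65 and 5.42, and Alas1 alone is left of 0.

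When the 4 steps between neighbouring populations were read in same-numbered libraries, each of the 7 genes rose in 12 of 12 cases and Alas1 rose in 3 of 12. Neighbouring steps share libraries, so these cases are not independent. The same count was not made over all genes, so it has no background here. At S0-Medium against S0-Low, S1 against S0-Medium and S2 against S1, edgeR called 0 of the 8 genes, and 0.0% of all genes tested. At an unadjusted p under 0.05 the counts were 5, 4 and 3 of the 8, all higher, and 539, 1135 and 667 of all genes. DESeq2 called 1, 2 and 1 of the 7 genes for which it gave an adjusted p, and 46, 401 and 151 of all genes. With the replicate number as a block the counts were 1, 2 and 0, against 23, 57 and 0 of all genes. With the block in edgeR, Alas2 passed in the first step (adjusted p = 0.038, log2 fold change 1.92 without the block). Alas2 (adjusted p = 0.00964) and Fech (adjusted p = 0.0387) passed in the second. In DESeq2, Cpox passed in the first step (adjusted p = 0.0143) and Alas2 did not (0.0744). Alas2 (2.29e-05) and Cpox (0.022) passed there in the second step, and Alas2 (0.0482) in the third.

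At the last step, S3 against S2, 4 of the 8 genes were higher (edgeR, 3.26% of all genes) and 0 were lower (6.09%). Alas2 changed by 2.95 ± 0.47 on the log2 scale (adjusted p = 0.00185), Fech by 1.83 ± 0.36 (0.00624), Ppox by 1.68 ± 0.50 (0.0464) and Cpox by 1.05 ± 0.29 (0.0355). Alas1 had a log2 fold change of -2.33 ± 0.99 that did not pass (adjusted p = 0.147). The libraries of S2 and S3 were separate for all 8, where 8.99% of all genes had S3 wholly above S2 and 14.2% wholly below. Alas1 was called lower with no filter on low counts (-2.36, adjusted p = 0.0116) and without S3 replicate 2 (-4.66, adjusted p = 0.00788). The count of genes called moved with the fit, and so did the share of all genes called, which was 9.35% here. DESeq2 called 6 of the 7 genes with an adjusted p, all higher (20.1% of all genes called). The count was 7, all higher, with the replicate block (18.6% of all genes), where Alad (adjusted p = 0.0866 without the block and 0.00414 with it), Uros (0.381 and 0.00832) and Urod (0.0763 and 0.000679) were added. It was 2 with library totals (1.74% of all genes higher and 13.7% lower) and 0 with only the 6 libraries compared (0.823% called). It was 7 without the replicate 3 libraries of every population (18.9%), and 2 without S2 replicate 1 (3.95%), S2 replicate 2 (3.94%) or S3 replicate 3 (4.99%).

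Across S0-Low to S1, the span in which CD71 is gained, 5 genes rose and 0 fell (edgeR, 0.979% of all genes higher and 1.95% lower). Alas2 had a log2 fold change of 4.70 ± 0.52 (adjusted p = 0.00105), Ppox of 2.60 ± 0.52 (0.0133), Fech of 2.28 ± 0.37 (0.00563), Cpox of 2.20 ± 0.30 (0.00255) and Alad of 1.92 ± 0.47 (0.0371). Uros (2.40 ± 0.79) and Urod (1.69 ± 0.52) passed with the replicate block, at adjusted p = 0.00183 and 0.00325, against 0.119 and 0.101 without it. With 1 replicate left out and no block, their log2 fold changes ran from 1.27 to 3.20 for Uros and from 1.02 to 1.94 for Urod. The count was 3 without S0-Low replicate 1 (0.816% of all genes called, against 2.92% with all libraries), S0-Low replicate 3 (1.33%) or S1 replicate 3 (0.676%). From S1 to S3, the span in which Ter119 is gained, 6 genes rose and 0 fell (edgeR, 7.21% of all genes higher and 12.1% lower), and Uros (1.88 ± 0.77, adjusted p = 0.0962) passed with the block (0.000221). Library totals gave 0.695% of all genes higher and 2.32% lower in the first span, where Alad lost its call (adjusted p = 0.0668) and 4 enzyme genes were called, and 3.54% and 23.6% in the second, where 6 were. In the second span Alas1 was called lower with no filter (adjusted p = 0.0148) and without S3 replicate 2 (0.0061). The changes over the later and the earlier span were compared directly, as the difference of their log2 fold changes. For 0 of the 8 genes did this difference pass in edgeR, against 1.01% of all genes tested, and for 0 at an unadjusted p under 0.05 (2543 of all genes). In DESeq2, which gave no adjusted p for Alas1, it passed for 0 of the others (6.04% of all genes). The differences ran from -1.44 ± 1.59 for Alas1 to 0.56 ± 0.89 for Urod. With 1 replicate left out, that of Alas1 ran from -3.79 to -0.89 and that of Urod from 0.06 to 1.89.

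Replicate 3 stood ahead of replicates 1 and 2 in S1 and S2 for 6 of the genes that rose, at 1.68 to 4.61 times their mean. For Cpox it was 1.01 and 1.28 times their mean. Summed erythroid markers were ahead in the same libraries, at 4728 CPM against 2297 and 2211 in S1 and at 10851 against 4508 and 4506 in S2. What set these libraries apart was not tested. Without the replicate 3 libraries of every population, 7 genes were called higher from S0-Low to S3 (13.7% of all genes higher), 7 from S0-Low to S1 (1.72%) and 7 from S1 to S3 (9.5%), against 7, 5 and 6 with all libraries.

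Because the genes differ in length, the levels of all 8 were ranked as CPM per kb of exon. The length counts every base in any annotated exon of a gene (4515 bases for Ppox). It can exceed the length of the transcripts in use, so the order depends on the gene models. In S0-Low Cpox led at 71.8 CPM per kb, apart from Fech at 34.9 and Alad at 33.2, and Alas2 was lowest at 1.98. Cpox led with separate libraries in S0-Medium (163) and S1 (331), and in S2 (438) it overlapped with Fech (313). Alas2 passed from the lowest level in S0-Low and S0-Medium to 51.5 in S1 and 184 in S2, and had the highest mean in S3 (1419). In S3 Alas2 overlapped with Fech (1109), and Fech with Cpox (904), while Cpox was above Alad (523) and Alad above Urod (326) without overlap. Ppox (218) and Uros (194) overlapped. Alas1 was the lowest of the 8 in S1 (7.12), S2 (8.13) and S3 (1.60). Of 42 pairs of neighbours in the 6 groups, 14 had separate libraries and 28 overlapped.

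**Figure D4:**
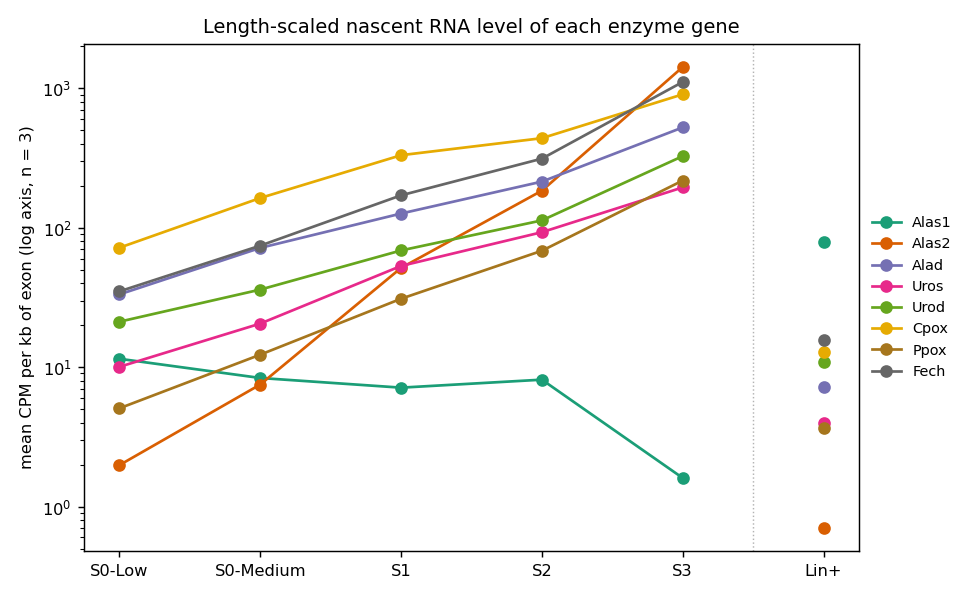
Mean level of each enzyme gene in CPM per kb of exon on a log axis (n = 3 libraries per group), joined by lines through the 5 erythroid populations, with Lin+ apart at the right. Alas2 climbs from 1.98 to 1419 and crosses the other genes, Cpox leads until S2, and Alas1 is at the bottom from S1 on and at the top in Lin+.

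In Lin+ cells Alas1 was the leading form. Its level was 254, 353 and 414 CPM, above every erythroid library, and Alas2 had 0, 2.27 and 2.80 CPM. The log2 ratio of Alas2 to Alas1 was -13.88, -7.27 and -7.20, with Alas2 at 0 counts in replicate 1. Against S0-Low, 2 genes fell (edgeR, 0.22% of all genes lower) and 0 rose (0.496%). Cpox had 46.1, 44.1 and 32.0 CPM in Lin+ and fell by 2.49 ± 0.29 on the log2 scale (adjusted p = 0.0002), and Alad had 16.8, 13.6 and 9.90 CPM and fell by 2.21 ± 0.46 (adjusted p = 0.0272). Alas1 had a log2 fold change of 2.78 ± 0.87 that did not pass in edgeR (adjusted p = 0.182). It passed in DESeq2 (adjusted p = 0.0329), and in edgeR with no filter (0.00322) and with only the 6 libraries compared (0.00167), and its libraries were separate from those of S0-Low. Fech (-1.15 ± 0.34, adjusted p = 0.153) passed with the replicate block (0.0438). Only Cpox was called without S0-Low replicate 2, S0-Low replicate 3, or any of the 3 Lin+ replicates, where the share of all genes called was 0.226% to 0.346%, against 0.715% with all libraries. The summed macrophage markers were 196 to 285 CPM in Lin+, the lymphoid markers 224 to 449 and the megakaryocyte markers 257 to 707, above every S0-Low library, as were the neutrophil and monocyte markers. Their part in the Alas1 level was not tested.

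Lin+ and S3 differed in all 8 genes, 1 higher in Lin+ (Alas1; 28.2% of all genes higher in edgeR) and 7 lower (14.1% lower). With library totals the shares of all genes were 40.1% and 7.54%. Alas1 had a log2 fold change of 5.61 ± 0.99 (edgeR adjusted p = 0.000264), and of 5.04 to 7.97 with 1 replicate left out, highest without S3 replicate 2. For Alas2 it was -10.95 ± 1.12 (edgeR adjusted p = 1.33e-06), and the other 6 lay between -6.19 and -4.91. Uros had 13.4, 16.2 and 12.7 CPM in Lin+, Urod 34.8, 24.8 and 24.5, Ppox 10.0, 20.2 and 19.0, and Fech 57.5, 40.5 and 38.5. S0-Low and S3 enter several of these comparisons, so the comparisons are not independent of each other.

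**Figure D5:**
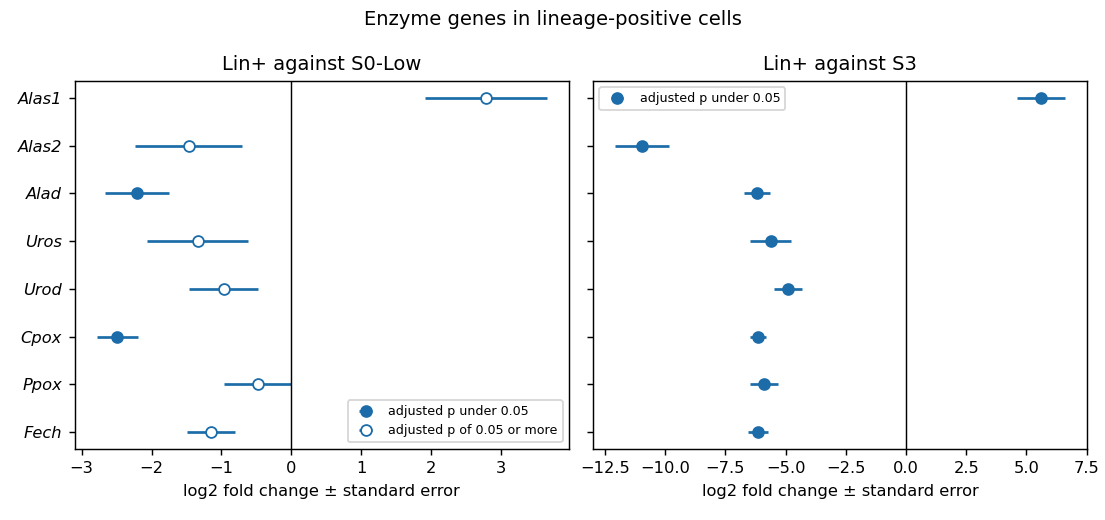
Log2 fold change ± SE of each enzyme gene in Lin+ against S0-Low (left) and against S3 (right), with filled points where the edgeR adjusted p is under 0.05. On the left only Alad (-2.21) and Cpox (-2.49) are filled; on the right all 8 are, with Alas1 at 5.61 and Alas2 at -10.95.

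The genes whose log2(CPM + 0.5) followed each enzyme gene most closely over the 18 libraries were found by Pearson's r, as a description over libraries that fall into 6 groups. Alas2 ran with Slc4a1 (r = 0.99), the red cell anion exchanger band 3, with the alpha-globin gene Hba-a2 (0.988) and with Fhdc1 (0.986). Alad ran with Blvrb (0.991), a biliverdin reductase, the red cell antioxidant gene Prdx2 (0.989) and Tspan33 (0.985). Fech ran with Spnb1, Spna1 (both spectrins of the membrane skeleton) and Tfrc, which encodes CD71 itself, each at 0.99. Cpox was most like Ssx2ip (0.987), Rhag (0.986), a membrane protein of the Rh complex, and Ank1 (0.984), the red cell ankyrin. Uros was most like 6030468B19Rik (0.99), Hemgn (0.986) and Ptdss2 (0.986), Urod was close to Apeh (0.986) and to Abcb10 (0.985), a mitochondrial transporter, and Ppox to Gfap (0.994), 2010011I20Rik (0.989) and Gclc (0.988). Alas1 had another set, with Prdx5 (0.952), Lrrcc1 (0.946) and Scamp2 (0.942). Among the 7 genes other than Alas1 the 21 pairs had r from 0.88 to 0.983, and Alas1 had r from -0.816 to -0.736 with them.

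Genes that supply or carry the precursors of heme were read from a list of 11, of which 10 were tested and Abcb6 was at 0 in all libraries. From S0-Low to S3, 6 rose and 1 fell (edgeR), where 13.4% of all genes were higher and 22.4% lower, and the median log2 fold change was 1.90. With library totals 5 were higher and 4 lower, against 6.98% and 37.6% of all genes, and Shmt2 lost its call (0.91, adjusted p = 0.0776). With the replicate block, where the shares were 15.9% and 26.4%, Suclg2 was also lower (adjusted p = 0.00527). Slc25a37, the mitochondrial iron carrier mitoferrin, had 30.5, 53.0 and 47.2 CPM in S0-Low and 4288, 5210.4 and 6067 CPM in S3, a log2 fold change of 6.89 ± 0.66. Slc6a9, a glycine transporter of the plasma membrane, changed by 5.69 ± 0.78, and Abcb10 by 5.52 ± 0.67. The 1 that fell was Suclg1, a subunit of the enzyme that handles succinyl-CoA, by 2.23 ± 0.41 on the log2 scale; it is named after its value was seen. At the 3 first steps 0 of the 10 passed in edgeR, as did 0.0% of all genes. An unadjusted p under 0.05 was met by 1, 3 and 2 (539, 1135 and 667 of all genes). DESeq2 called 0, 1 and 0 (46, 401 and 151 of all genes). With the block Slc25a37 passed in the second (adjusted p = 0.0387). At S3 against S2, 2 rose and 1 fell, against 3.26% and 6.09% of all genes, and the counts were 3 and 2 with the block (7.3% and 11.3% of all genes) and 1 and 1 with library totals (1.74% and 13.7%).

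A second list held 9 genes that regulate the enzymes or break heme down, and all 9 were tested. From S0-Low to S3, 2 rose and 1 fell (edgeR, against 13.4% and 22.4% of all genes), with a median log2 fold change of 0.43. With library totals 1 was higher and 4 were lower (6.98% and 37.6% of all genes), and with the replicate block (15.9% and 26.4%) Clpp was also lower (adjusted p = 0.0302). Blvrb had 39.8, 47.7 and 92.6 CPM in S0-Low and 1087, 1329.8 and 1858 CPM in S3 (4.57 ± 0.55). With the block Blvrb also passed at S0-Medium against S0-Low (0.0491) and at S1 against S0-Medium (0.0387). At S3 against S2, 0 of the 9 passed in edgeR, against 9.35% of all genes. An unadjusted p under 0.05 was met by 3 (4378 of all 16555 genes), and DESeq2 called 2 (20.1% of all genes). With the block Blvrb was higher there (0.000133) and Aco1 lower (0.0471), against 7.3% and 11.3% of all genes, and with library totals Aco1 (0.0422) and Clpp (0.0449) were lower, against 13.7%. Clpx, a mitochondrial chaperone that acts on the first enzyme, changed by 1.39 ± 0.41 (adjusted p = 0.0177), and by 0.52 (adjusted p = 0.295) with library totals. Aco1, the iron-sensing protein that also binds the Alas2 messenger RNA, had 44.2, 32.8 and 56.7 CPM in S0-Low and 0, 11.1 and 0.460 CPM in S3, and fell by 3.51 ± 1.12 on the log2 scale. As with Alas1, replicate 2 was the highest of the S3 libraries.

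Promoter sequence was taken from RefSeq (GRCm38.p6) for 7 of the 8 genes, in 10 windows, and the 250 bases before each start were searched on both strands. GATA factors are the best known regulators of erythroid genes, and their motif was searched as AGATAA, its variant AGATAG, and likewise TGATAA or else TGATAG. It was found for 3 of the 7 genes, in 3 of the 10 windows (Alas2, Cpox and the second start of Uros), and 26.5% of 32851 such windows of all genes hold it. The second start of Alas1 held GCATGCG, an NRF1-like motif that overlaps its own reverse complement (3.02% of windows). Cpox held CACACCC (6.93%) and Alas2 held TATAAA (12.4%), both on the strand opposite to the gene. In the direction of the gene they read GGGTGTG, beginning 204 bases upstream in Cpox, and TTTATA, beginning 209 bases upstream in Alas2. TGANTCA (6.75% of windows) was in none of the 10. The windows of Alas2 (chrX:150547167-150547416, plus strand) and Cpox (chr16:58669958-58670207, plus strand) are shown because these genes had the largest rise and the highest S0-Low level per kb. Each reads 5′ to 3′ and ends at the base before the start, with letters that match GATA on either strand in capitals. The match begins 86 bases upstream in Alas2, and 91 and 86 bases upstream in Cpox, where the pair shares 1 base.
Alas2: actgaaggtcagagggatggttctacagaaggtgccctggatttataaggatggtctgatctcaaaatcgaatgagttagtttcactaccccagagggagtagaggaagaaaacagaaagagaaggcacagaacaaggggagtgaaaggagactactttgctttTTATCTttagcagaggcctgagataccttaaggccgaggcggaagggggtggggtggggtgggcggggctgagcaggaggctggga
Cpox: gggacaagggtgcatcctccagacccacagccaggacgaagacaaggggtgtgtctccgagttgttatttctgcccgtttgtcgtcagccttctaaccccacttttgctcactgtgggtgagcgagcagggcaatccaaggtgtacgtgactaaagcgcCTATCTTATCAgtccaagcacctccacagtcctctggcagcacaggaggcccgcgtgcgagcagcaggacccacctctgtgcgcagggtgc
Such matches are letters in a window and were not tested for binding.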

How the data were processed

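Nascent RNA was measured in 18 libraries of mouse fetal liver cells, 3 for each of 5 erythroid populations and 3 for Lin+ cells. Per the labels and methods, libraries were made with a stranded kit and 14 cycles of PCR without molecular identifiers, so floors cover counting error only. The authors quantified reads with Kallisto (0.43.0, with GRCm38, in the submitters' processing notes) and deposited whole-number counts per gene, not normalized. The transcript set, the strand setting and the treatment of introns in counting are not given in the sources used here. Kallisto divides reads among the transcripts they match, so overlapping or similar genes share counts (13.9% of the 31-base words of Alas2 occur in Apex2, and 2.98% of those of Urod and 2.34% of those of Cpox in other genes).

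Counts were analysed with edgeR 4.0.16 in R 4.3.3: TMM scaling, filterByExpr by population, and two-sided quasi-likelihood tests, with p adjusted over all genes kept (Benjamini-Hochberg) and called under 0.05. The 15 erythroid libraries entered 1 fit (16555 genes) and all 18 another for Lin+ (17755 genes). The fit was first tested on simulated data with known changes. Alternatives used DESeq2 1.42.0, other scalings, filters and sets of libraries, the replicate number as a block, and each replicate left out. Leaving out all replicate 3 libraries was chosen after seeing the data. Coordinates are RefSeq's on GRCm38. Exon lengths count every base in any exon of a gene in GENCODE models of an older build (NCBIM37).

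The labels number the replicates without saying what a number stands for, and the study calls them biological replicates. Deviations from the group means of same-numbered libraries correlated over 0.1 in every pair in 7 of the 9 comparisons of groups. The lowest was 0.081 in S3 against S0-Low and 0.091 in Lin+ against S3. All 18 libraries correlated best with their own number, so blocked values are given where they change a call of an enzyme gene, and for the lists in S3 against S0-Low and the 4 steps.

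The enzyme genes and lists were chosen with earlier results of these data known. Named genes are the 8 enzyme genes, the 3 genes most like each of them, and in each list the 3 largest changes called in S3 against S0-Low. Suclg1, Suclg2, Shmt2 and Clpp were named after their values were seen. Results for 1 gene named by this rule are not reported here.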

Additional observations from a re-analysis of the deposited data

How the results depend on the processing

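Of 1265 values of single enzyme genes under the alternatives, 1165 kept their direction and their side of the threshold, 40 lost a call, 39 gained one and 21 turned direction, and none of the 21 had been called. The number of genes called stayed within 1.5 times its value in S3 against S0-Low, S3 against S1 and Lin+ against S3 under every alternative run. For S0-Medium against S0-Low it went from 0 to 1 with DESeq2, with no filter and with the replicate block. For S1 against S0-Medium it went from 0 to 2 with DESeq2 and the block and to 1 with no filter, and for S2 against S1 from 0 to 1 with DESeq2 and no filter. For S3 against S2 it went from 4 to 2 with library totals, to 7 with no filter (6 higher and Alas1 lower), with the replicate block and without the replicate 3 libraries (all higher), and to 0 with only the 6 libraries compared. For Lin+ against S0-Low it went from 2 to 1 with at least 10 counts in every library, a filter that left 7 of the genes. The share of all genes called was 0.513% there, against 0.715% in the main fit. With 1 replicate left out, the counts ran from 7 to 8 in S3 against S0-Low, 2 to 5 in S3 against S2 (2 higher and Alas1 lower without S3 replicate 2), 3 to 4 in S1 against S0-Low, 5 to 7 in S3 against S1 and 1 to 2 in Lin+ against S0-Low, and were 0 in the first 3 steps and in the comparison of the later with the earlier span, and 8 in Lin+ against S3. With no filter, 0.183%, 1.13%, 0.267% and 8.81% of all genes were called at the 4 steps. The causes were not tested.

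The difference between S3 and S0-Low in the Alas2 to Alas1 log2 ratio was 14.79 with 0.5 counts added, 15.57 with 0.1 and 13.58 with 5, and 12.46 to 16.68 with 1 replicate left out. The mean of S3 rests in part on replicate 1, which had 0 Alas1 counts. The replicate block, that is the pairing by number, gave 14.79 as well, where the smallest p that 3 pairs allow is 0.25. It changed no other call of an enzyme gene than those given with the results.

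The turns of direction were in uncalled values. In S0-Medium against S0-Low, leaving out 1 replicate gave log2 fold changes of -0.1 to 1.88 for Uros and -0.05 to 1.03 for Urod, below 0 without S0-Medium replicate 3, and in S2 against S1 -0.02 to 1.94 for Uros, below 0 without S2 replicate 3. The difference between the later and the earlier span turned with library totals for Alas2 (-0.42), Alad (-0.34), Ppox (-0.33) and Fech (-0.05). For Uros it was 0.13 with the replicate block and 0.81 without the replicate 3 libraries. With 1 replicate left out it ran from -0.35 to 1.3 for Alas2, -0.3 to 1.2 for Alad, -1.3 to 1.73 for Uros and -0.28 to 1.33 for Ppox, each highest without S1 replicate 3.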
